A study of Mus musculus with 9 samples.

Results

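Cadherins are calcium-dependent adhesion proteins that join neighbouring cells. The genes described here are the 58 mouse genes whose symbol begins with Cdh and a digit or with Pcdh, among 22180 genes with a single-symbol probe set on the array. They comprise 5 type I and 13 type II classical cadherin genes, 5 other cadherin genes, 23 clustered protocadherin genes and 12 other protocadherin genes. Where a gene had several probe sets, the brightest on average was used. A gene was tested if it lay above the array's median probe set in at least 3 of 9 arrays, which held for 48 of the 58 members and for 13012 genes in all. This filter used levels only, but 13 of the 48 passed through some arrays and not others, so counts over tested members are given beside counts over all 58.

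RNA came from cells of the embryonic cortex of wild-type CD1 mice, with 3 arrays for each of 3 cultures. The co-culture held neurons taken at E16 and kept for 5 days in total, onto which precursors taken at E13 had been placed for the last day. The neuron culture held E16 cortical cells alone for 5 days in total (one label gives 4 days), and the precursor culture held E13 cortical cells alone for 1 day. No transgene or drug is named in the labels. Embryonic day and days in culture differ between the separate cultures as well as cell type, and these cannot be told apart. The labels call the 3 arrays of a group biological replicates without saying which litters they came from, so p-values measure the spread between these samples.

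Classical cadherins bind their own kind on the opposite cell and are tied to actin through catenins. Type I members such as N-cadherin hold radial precursors together at the ventricular surface, and type II members mark cortical areas, layers and sets of synapses. Clustered protocadherins are encoded by neighbouring alpha, beta and gamma gene groups, from which each neuron uses its own selection, and they let its branches recognise each other. The protocadherins outside the clusters include the delta family, which acts in axon growth and synapse remodelling.

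The labels were checked against marker genes first. All 6 precursor markers were lower in neurons than in precursors, with a log2 difference of -2.96 for Mki67. Higher in neurons were 5 of 6 neuron markers, with 1.45 for Syt1. Over all tested genes 35.2% were lower in neurons and 28.0% higher. The neuron marker Tubb3 did not differ past the threshold, at 11.96 ± 0.032 in the co-culture, 11.95 ± 0.0054 in neurons and 11.96 ± 0.047 in precursors (SD, n = 3 each). Of 6 tested interneuron markers 3 were higher in neurons, among them Sst (1.40), and 3 lower, among them Dlx2 (-0.80). Arrays of 1 group correlated at 0.988 or above over all probe sets, and neurons with precursors at 0.964 to 0.969. All values below are log2 RMA levels or differences of them unless a fold is named. They are relative levels in whole cultures, in which fewer cells of a type and less RNA per cell cannot be told apart.

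Most tested members were higher in neurons than in precursors, and the larger part of these were protocadherins. Of the 48 tested members, 35 were higher, 4 lower and 9 not past the threshold (adjusted p under 0.05, limma). Over all 13012 tested genes 28.0% were higher and 35.2% lower. By class, 19 of 19 clustered and 10 of 11 other protocadherins tested were higher and 0 lower. Of the cadherins, 0 of 3 type I, 5 of 12 type II and 1 of 3 others were higher. In those 3 cadherin classes 1, 2 and 1 were lower, so the pooled count does not describe the cadherins. Among the 35 members above the array median in every one of the 9 arrays, 24 were higher, 3 lower and 8 not past. With all 22180 genes fitted and no filter, 39 of the 58 members were higher and 4 lower, against 17.7% and 20.2% of all genes. A difference of at least 2-fold was reached by 25 members that were higher and by 1 that was lower, against 5.49% and 4.80% of tested genes. All 3 neuron arrays lay above all 3 precursor arrays for 35 tested members and below them for 5, as they did for 29.5% and 36.9% of tested genes. The median difference was 1.05 over the 48 tested members and -0.02 over all tested genes. The median over all 58 members was 0.89.

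**Figure D1:**
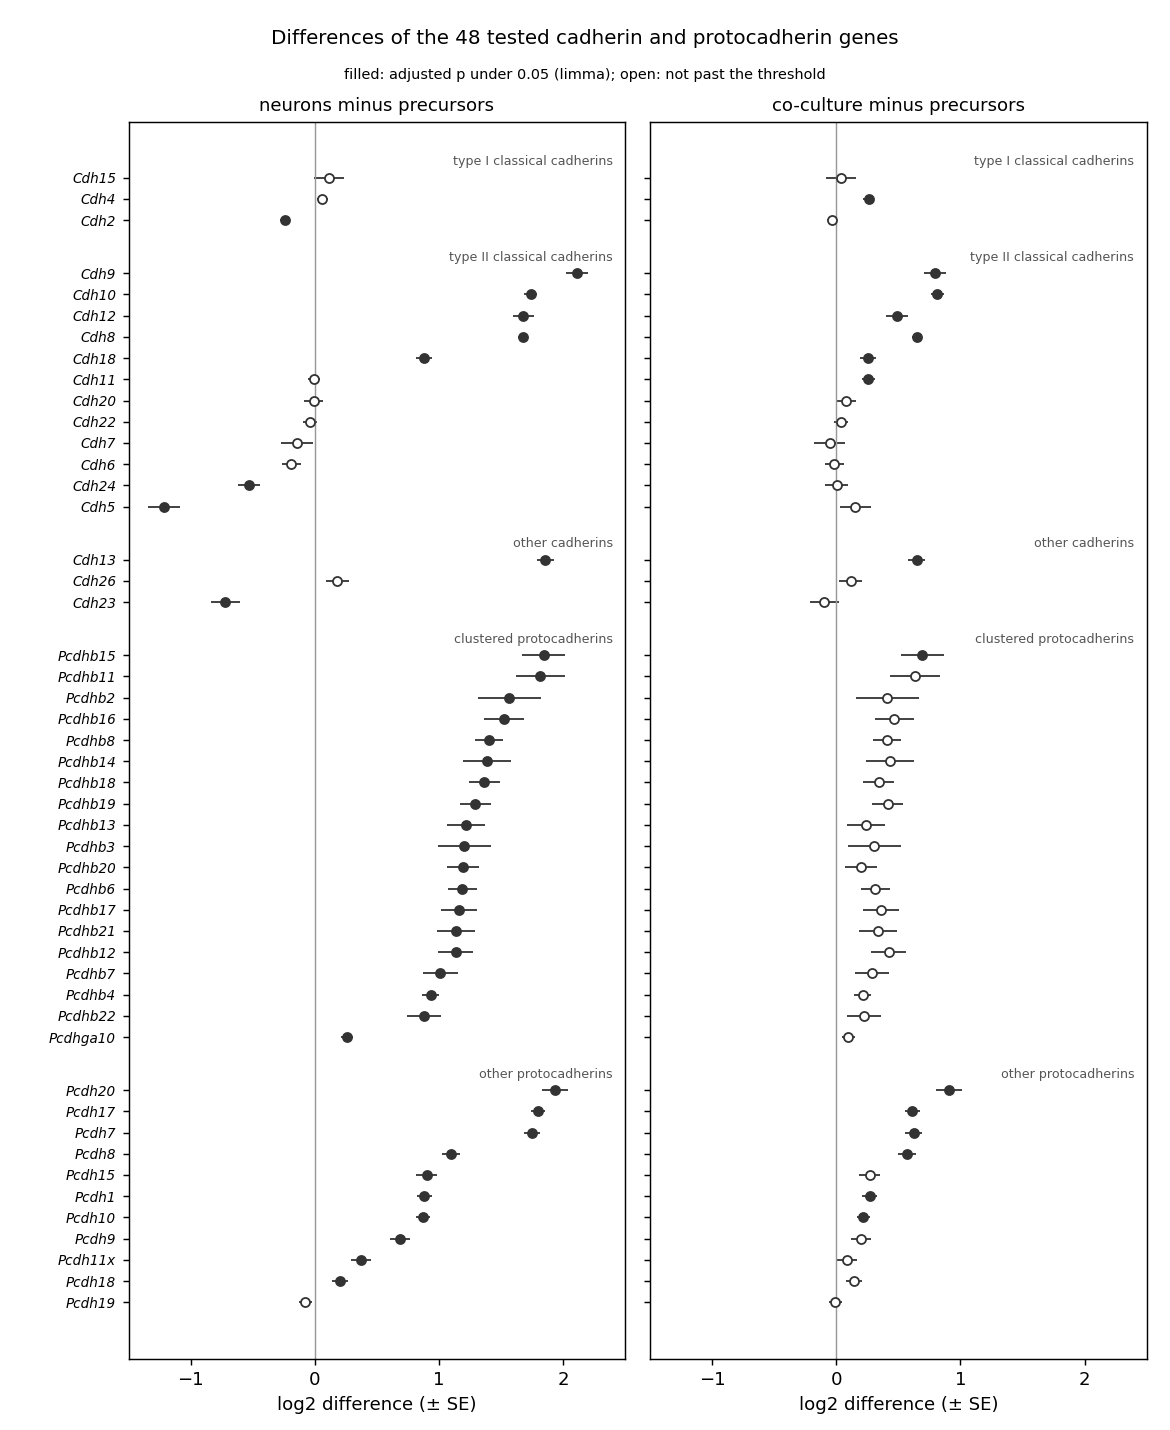
Log2 differences with standard errors for the 48 tested members, neurons minus precursors on the left and co-culture minus precursors on the right, grouped by class and ordered by the left-hand value. Filled points passed the threshold. In the left panel, differences run from -1.21 for Cdh5 to 2.11 for Cdh9, and all 19 tested clustered protocadherins lie to the right of 0.

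The type I classical cadherins differed little between the cultures. Cdh2 encodes N-cadherin, the main cadherin of neural tissue. It was at 11.89, 11.88 and 11.89 in the co-culture, at 11.70, 11.71 and 11.62 in neurons, and at 11.92, 11.91 and 11.93 in precursors. The neuron arrays lay below all precursor arrays (1.18-fold lower, log2 difference -0.24, SE 0.041, adjusted p = 5.20e-04, limma). A further probe set of Cdh2 differed by -0.30. Cdh4, which encodes R-cadherin, was at 8.89 ± 0.060 in neurons and 8.83 ± 0.017 in precursors and did not pass (0.06, adjusted p = 0.272, limma). It did with cyclic loess, at 0.14 (adjusted p = 0.0103, limma), and a dimmer probe set of the gene differed by -0.23. Cdh15, the M-cadherin gene of muscle, did not pass either (0.11, adjusted p = 0.445, limma). Cdh1, the E-cadherin gene of epithelia, lay below the median in all 9 arrays, with means of 6.51 in the co-culture, 6.45 in neurons and 6.47 in precursors, and so did the P-cadherin gene Cdh3.

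The type II cadherins divided into members well above the precursor level in neurons and members at or below it. Of 12 tested, 5 were higher, 2 lower and 5 not past, against 28.0% higher and 35.2% lower among all tested genes. Cdh6, Cdh9, Cdh10, Cdh12 and Cdh18 stand next to each other on chromosome 15, with no other protein-coding gene between the first 4 and 1 between Cdh12 and Cdh18 in the RefSeq gene table. Of these neighbours, all but Cdh6 were higher in neurons.

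The start regions of these 5 neighbours are printed because 4 of them rose in neurons and the other did not. Each runs from 250 bases before to 50 bases after the annotated start, from RefSeq on GRCm38.p6, read along the gene. Cdh9 is at chr15:16728665-16728964 (plus strand), Cdh10 at chr15:18820079-18820378 (plus strand), Cdh12 at chr15:21111202-21111501 (plus strand), Cdh18 at chr15:23036213-23036512 (plus strand) and Cdh6 at chr15:13173626-13173925 (minus strand). Capitals mark E-boxes (CANNTG, bound by bHLH proteins), TATA boxes (TATAAA) and the left part of the site of the neuronal gene repressor REST (TTCAGCACC), searched on both strands.
Cdh9: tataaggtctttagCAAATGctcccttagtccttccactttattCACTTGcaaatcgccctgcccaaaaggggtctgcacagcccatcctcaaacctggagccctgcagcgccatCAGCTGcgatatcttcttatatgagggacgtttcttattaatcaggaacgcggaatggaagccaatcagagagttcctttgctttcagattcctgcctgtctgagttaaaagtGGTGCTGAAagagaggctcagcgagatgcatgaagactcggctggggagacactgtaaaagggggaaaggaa
Cdh10: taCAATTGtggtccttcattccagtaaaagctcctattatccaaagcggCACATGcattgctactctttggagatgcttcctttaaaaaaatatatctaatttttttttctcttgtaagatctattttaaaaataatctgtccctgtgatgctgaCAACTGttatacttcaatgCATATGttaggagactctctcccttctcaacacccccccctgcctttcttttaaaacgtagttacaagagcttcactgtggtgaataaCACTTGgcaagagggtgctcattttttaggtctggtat
Cdh12: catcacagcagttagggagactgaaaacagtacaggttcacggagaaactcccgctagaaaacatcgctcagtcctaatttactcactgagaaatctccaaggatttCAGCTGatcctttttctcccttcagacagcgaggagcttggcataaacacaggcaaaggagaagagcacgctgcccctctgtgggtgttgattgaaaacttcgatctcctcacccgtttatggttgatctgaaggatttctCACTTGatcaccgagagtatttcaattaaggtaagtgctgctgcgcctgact
Cdh18: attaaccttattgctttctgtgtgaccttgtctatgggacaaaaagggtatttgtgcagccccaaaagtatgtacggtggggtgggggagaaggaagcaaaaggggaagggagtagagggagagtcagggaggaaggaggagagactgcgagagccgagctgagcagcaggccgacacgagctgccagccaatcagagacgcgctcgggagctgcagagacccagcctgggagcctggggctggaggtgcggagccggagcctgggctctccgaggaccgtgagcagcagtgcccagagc
Cdh6: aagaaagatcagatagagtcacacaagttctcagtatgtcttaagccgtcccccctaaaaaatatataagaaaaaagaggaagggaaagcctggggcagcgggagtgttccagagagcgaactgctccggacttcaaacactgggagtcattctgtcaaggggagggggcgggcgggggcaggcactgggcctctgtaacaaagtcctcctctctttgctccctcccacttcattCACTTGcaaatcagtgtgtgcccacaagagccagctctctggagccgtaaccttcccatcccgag
The Cdh9 window held 3 E-boxes and the Cdh10 window 5, the Cdh12 window 2, the Cdh6 window 1 and the Cdh18 window 0. E-boxes were in 72.3% of all 32851 windows of this length, and in 13 of the 22 members that had a window. The REST letters were found in the Cdh9 window, on the opposite strand at position -22, overlapping no E-box. They were in 0.371% of all windows and in 1 of the 22 members that had a window in the table. None of the 5 windows held TATAAA, which was in 13.6% of all windows. A match of letters is not a bound site. The GC content was 48.7% for Cdh9, 37.7% for Cdh10, 46.7% for Cdh12, 60.3% for Cdh18 and 53.0% for Cdh6, and the median of all windows was 52.7%.

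Cdh9, which encodes a cadherin that guides synapse formation in the hippocampus, was at 7.04, 6.90 and 6.87 in the co-culture, at 8.22, 8.36 and 8.18 in neurons, and at 6.02, 6.06 and 6.34 in precursors. The 3 groups did not overlap, and no precursor array reached the array median. Neurons exceeded precursors (4.33-fold, log2 difference 2.11, SE 0.088, adjusted p = 3.05e-08, limma). Because Cdh9 passed the filter only through the other groups, a difference was partly built into its being tested. Cdh10 was at 9.67, 9.69 and 9.67 in the co-culture, at 10.61, 10.59 and 10.61 in neurons, and at 8.76, 8.90 and 8.94 in precursors. It was above the median in all arrays, its groups did not overlap, and neurons exceeded precursors (3.34-fold, log2 difference 1.74, SE 0.052, adjusted p = 4.20e-09, limma). Cdh12 was at 8.50, 8.42 and 8.38 in the co-culture, at 9.64, 9.75 and 9.49 in neurons, and at 7.95, 8.09 and 7.79 in precursors. Its groups did not overlap either, and neurons again exceeded precursors (3.20-fold, log2 difference 1.68, SE 0.087, adjusted p = 1.26e-07, limma). Cdh18 was higher in neurons by 0.88 (1.83-fold, SE 0.065, adjusted p = 1.54e-06, limma). Cdh6 was at 9.40 ± 0.033 in neurons and 9.59 ± 0.15 in precursors and did not pass (-0.19, adjusted p = 0.0534, limma), though it did with the filter at the 75th percentile (0.0366) and without precursor replicate 3 (0.0177).

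Cdh8, a type II gene expressed in patterned areas of the developing cortex, stands on chromosome 8. It was at 8.32, 8.30 and 8.32 in the co-culture, at 9.28, 9.35 and 9.37 in neurons, and at 7.68, 7.64 and 7.65 in precursors. The groups did not overlap, and neurons exceeded precursors (3.19-fold, log2 difference 1.68, SE 0.042, adjusted p = 1.78e-09, limma). Its neighbours in the gene table are the type II genes Cdh11 and Cdh5, with no protein-coding gene between them, and neither was higher in neurons. Cdh11, the OB-cadherin gene, was at 10.11 ± 0.019 in neurons and 10.12 ± 0.059 in precursors (-0.01, adjusted p = 0.928, limma). Cdh7 (-0.15), Cdh20 (-0.01) and Cdh22 (-0.04) did not pass.

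Cdh5 encodes VE-cadherin, the junction protein of blood vessel endothelium. It was at 8.24, 8.67 and 8.10 in the co-culture, at 6.89, 6.999 and 7.02 in neurons, and at 8.25, 8.07 and 8.23 in precursors. Every neuron array lay below every array of the other groups. Neurons were below precursors (2.32-fold, log2 difference -1.21, SE 0.13, adjusted p = 1.75e-05, limma). Some markers of endothelial cells were also lower in neurons, by less than Cdh5, and others did not pass. Of the 7 listed (Pecam1, Kdr, Cldn5, Tek, Tie1, Flt1 and Emcn) 3 were tested and all 3 were lower in neurons, as were 35.2% of all tested genes. The differences were -0.51 for Flt1, -0.34 for Pecam1 and -0.30 for Kdr. These 3 were below the array median in all neuron arrays and passed the filter only through the other cultures, so a difference was partly built into their being tested. Without the filter Emcn was lower too (-0.88, adjusted p = 0.0114, limma), and Cldn5, Tek and Tie1 did not pass. The linear levels of the 7 summed to 652 to 764 in the co-culture, 509 to 552 in neurons and 665 to 710 in precursors. Among co-culture arrays, replicate 2 was highest for Cdh5, and also for Emcn and Kdr, at 7.06 and 7.21. The part of endothelial cells in the Cdh5 difference was not tested. The other type II gene to fall was Cdh24, at 8.22 ± 0.20 in neurons and 8.75 ± 0.059 in precursors (1.44-fold lower, log2 difference -0.53, SE 0.091, adjusted p = 5.59e-04, limma). Cdh19, which marks Schwann cell precursors, was below the filter, with means of 4.25 in the co-culture, 4.35 in neurons and 4.44 in precursors.

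**Figure D2:**
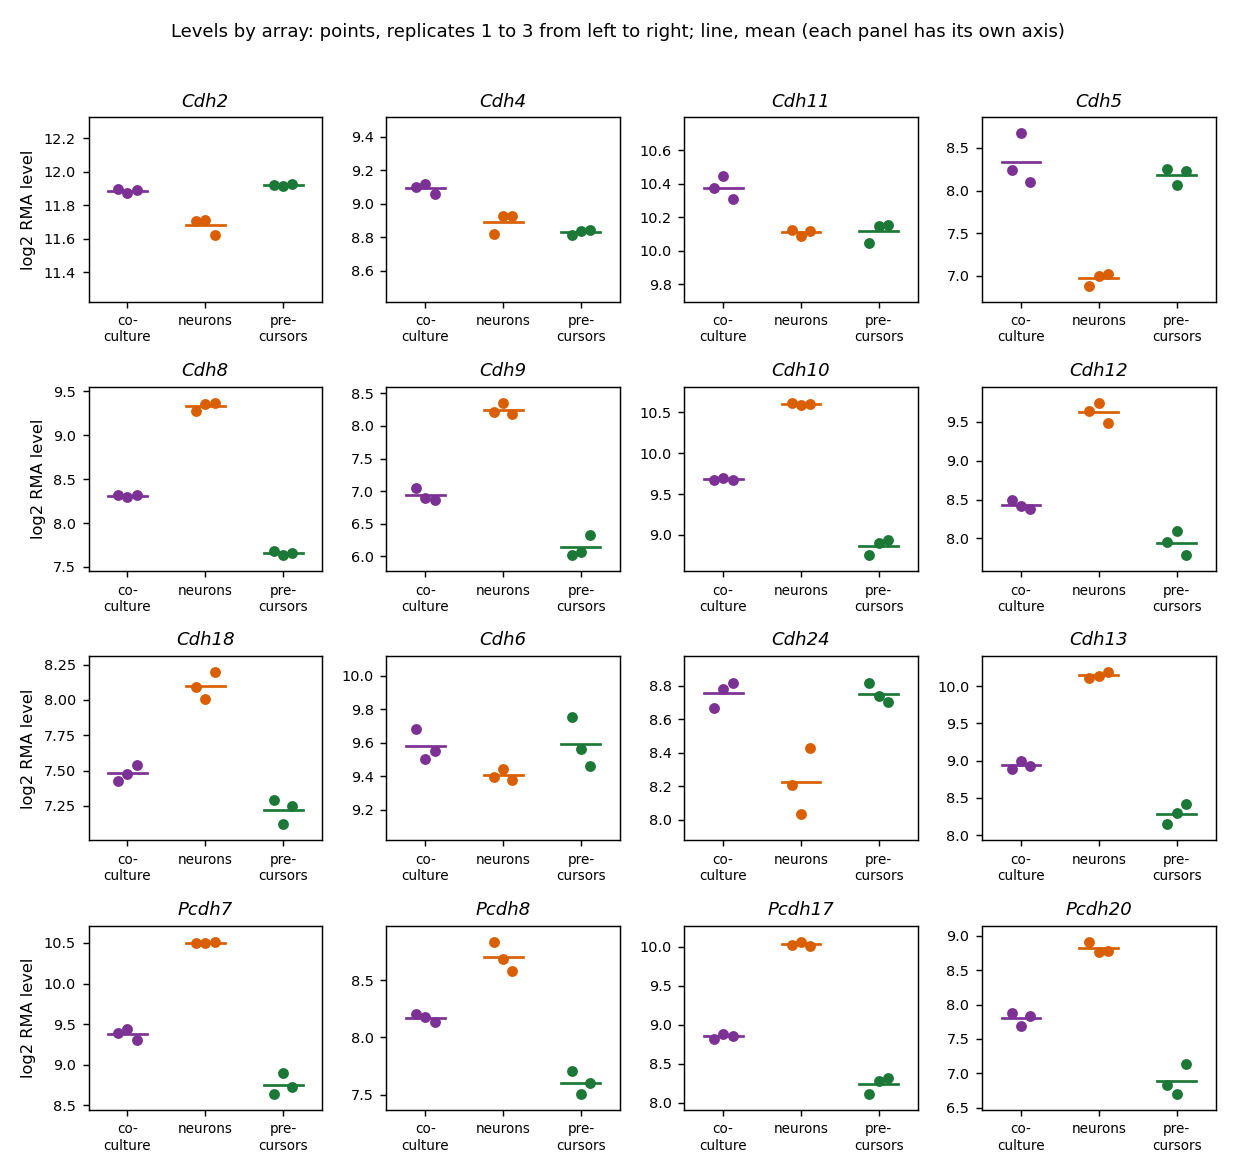
Log2 RMA levels of 16 members in each array, with the co-culture, neurons and precursors from left to right in every panel. Points are replicates 1 to 3, lines are means, and each panel has its own vertical axis. Cdh4 and Cdh11 have their highest values in the co-culture, Cdh5 and Cdh24 their lowest means in neurons, and Cdh8, Cdh9, Cdh10, Cdh12, Cdh18, Cdh13 and the Pcdh genes have a co-culture mean between those of neurons and precursors.

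The other cadherins moved in different directions. Cdh13 encodes T-cadherin, which lacks a cytoplasmic part and is held in the membrane by a glycolipid anchor. It was at 8.89, 8.99 and 8.94 in the co-culture, at 10.11, 10.13 and 10.19 in neurons, and at 8.15, 8.30 and 8.42 in precursors. With no overlap between groups, it was higher in neurons than in precursors (3.62-fold, log2 difference 1.86, SE 0.068, adjusted p = 1.44e-08, limma). Cdh23 and Pcdh15 encode the partners that form the tip links of inner ear hair cells, and they changed in opposite directions. Cdh23 was at 6.29 ± 0.084 in neurons and 7.01 ± 0.23 in precursors (1.65-fold lower, log2 difference -0.72, SE 0.12, adjusted p = 3.77e-04, limma). In neurons it lay below the median in all 3 arrays. Pcdh15 was at 7.91 ± 0.16 in neurons and 7.01 ± 0.081 in precursors (1.86-fold higher, log2 difference 0.90, SE 0.085, adjusted p = 8.97e-06, limma), and a further Pcdh15 probe set differed by 0.87. Cdh26 did not pass (0.18, adjusted p = 0.113, limma), except without neuron replicate 2 (0.25, adjusted p = 0.0393, limma). Cdh16 and Cdh17, cadherins of kidney and intestine, were below the filter.

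Every clustered protocadherin with a single-symbol probe set was higher in neurons. These are 22 beta genes, Pcdhb1 to Pcdhb22, and 1 gamma gene, Pcdhga10. Alpha genes had no probe set with a single symbol. Of the beta genes 18 were tested and all 18 passed, 9 of them after passing the filter in some arrays and not others. Pcdhb1, Pcdhb5, Pcdhb9 and Pcdhb10 were below the filter. In the fit without a filter all 22 were higher in neurons, by 0.40 (Pcdhb1) to 1.84 (Pcdhb15) with a median of 1.20, against 17.7% of all 22180 genes. For all 22 the neuron arrays lay above all precursor arrays, as they did for 21.4% of all genes. Beta genes are close copies of each other, and their probe sets can pick up transcripts of related copies, so the 22 are not independent measurements and each single value is uncertain. Pcdhga10 was higher by 0.26 (SE 0.051, adjusted p = 0.00148, limma). A brighter probe set that carries the symbols Pcdhga10 and Gm19774 differed by -0.04 and was not part of the test.

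Of the tested beta genes 16 were at least 2-fold higher in neurons, and Pcdhb4 (0.93) and Pcdhb22 (0.88) were under that. Folds in this and the next paragraph are neurons over precursors. Pcdhb15 was at 7.48, 7.49 and 7.59 in the co-culture, at 8.39, 8.55 and 9.07 in neurons, and at 6.53, 6.91 and 7.04 in precursors (3.59-fold higher in neurons than in precursors, log2 difference 1.84, SE 0.17, adjusted p = 8.47e-06, limma). Its groups did not overlap, and 1 precursor array was below the array median. Pcdhb11 was at 6.84, 6.73 and 7.06 in the co-culture, at 7.91, 7.76 and 8.49 in neurons, and at 5.90, 6.37 and 6.46 in precursors (3.52-fold higher in neurons than in precursors, adjusted p = 2.49e-05, limma). Pcdhb2 was at 6.15, 6.05 and 6.44 in the co-culture, at 6.99, 7.04 and 8.08 in neurons, and at 5.64, 5.78 and 5.9995 in precursors (2.96-fold, SE 0.26 on the log2 scale, adjusted p = 4.07e-04, limma). The groups did not overlap for either, and neuron replicate 3 stood well above the other neuron arrays in both. Pcdhb2 was above the array median in the neuron arrays alone, and Pcdhb11 in no precursor array, so for both a difference was partly built into being tested. Without the filter they passed too (adjusted p = 7.13e-04 for Pcdhb2 and 4.59e-05 for Pcdhb11, limma). Pcdhb16 was at 7.59, 7.67 and 8.01 in the co-culture, at 8.57, 8.73 and 9.13 in neurons, and at 7.10, 7.29 and 7.48 in precursors (2.87-fold). Pcdhb8 was at 7.76, 7.89 and 7.95 in the co-culture, at 8.61, 8.88 and 9.09 in neurons, and at 7.49, 7.31 and 7.57 in precursors (2.64-fold). Pcdhb14 was at 6.66, 6.76 and 6.93 in the co-culture, at 7.48, 7.49 and 8.26 in neurons, and at 6.33, 6.19 and 6.55 in precursors (2.62-fold). In these 3 the cultures did not overlap, and Pcdhb14 was below the median in every precursor array. Pcdhb18 was at 7.97, 8.13 and 8.21 in the co-culture, at 9.03, 9.13 and 9.22 in neurons, and at 7.46, 7.82 and 8.001 in precursors (2.58-fold). Pcdhb19 was at 7.38, 7.73 and 7.73 in the co-culture, at 8.35, 8.51 and 8.60 in neurons, and at 7.01, 7.17 and 7.41 in precursors (2.45-fold). Neurons were clear of both other cultures in this pair, while the co-culture overlapped the precursors.

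The remaining beta genes past 2-fold follow in order of fold. Pcdhb13 was at 7.38, 7.45 and 7.60 in the co-culture, at 8.18, 8.32 and 8.85 in neurons, and at 7.08, 7.31 and 7.32 in precursors (2.32-fold). Pcdhb3 was at 6.82, 7.09 and 7.12 in the co-culture, at 7.51, 7.77 and 8.43 in neurons, and at 6.44, 6.75 and 6.91 in precursors (2.30-fold). The co-culture was clear of precursors for Pcdhb13 and not for Pcdhb3. Pcdhb20 was at 7.82, 8.16 and 8.20 in the co-culture, at 9.02, 9.04 and 9.10 in neurons, and at 7.58, 8.03 and 7.98 in precursors (2.28-fold). Pcdhb6 was at 8.55, 8.51 and 8.77 in the co-culture, at 9.27, 9.41 and 9.77 in neurons, and at 8.23, 8.35 and 8.30 in precursors (2.28-fold). Pcdhb17 was at 8.03, 8.21 and 8.31 in the co-culture, at 8.79, 8.97 and 9.19 in neurons, and at 7.52, 7.85 and 8.10 in precursors (2.24-fold). Of these 3, Pcdhb6 alone had a co-culture above all precursor arrays. Pcdhb21 was at 6.05, 6.19 and 6.23 in the co-culture, at 6.79, 7.06 and 7.03 in neurons, and at 5.53, 5.73 and 6.20 in precursors (2.20-fold). Pcdhb12 was at 6.78, 6.90 and 6.78 in the co-culture, at 7.29, 7.43 and 7.88 in neurons, and at 6.26, 6.36 and 6.59 in precursors (2.19-fold). Pcdhb7 was at 7.38, 7.57 and 7.61 in the co-culture, at 8.18, 8.15 and 8.40 in neurons, and at 6.88, 7.40 and 7.42 in precursors (2.02-fold). Pcdhb12 had 3 separate groups, and in Pcdhb21 and Pcdhb7 the co-culture overlapped the precursors.

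The beta genes also varied together among arrays of 1 group. Replicate 3 was the highest array for 17 of the 22 genes in the co-culture, for 19 in neurons and for 16 in precursors. Replicate 1 was the lowest for 17 of them in the co-culture, for 18 in neurons and for 16 in precursors. Such counts were not made for other genes, so the pattern is not shown to be particular to the beta genes. The standard deviation over 3 neuron arrays had a median of 0.235 over the 22 beta genes and 0.084 over the 29 tested members outside the clusters. Over precursor arrays the medians were 0.187 and 0.097. Of the 22 beta genes 18 were tested, whereas the other set holds tested genes alone, so the 2 sets were filtered differently. The labels do not say what a replicate number stands for. Without neuron replicate 3 all 18 tested beta genes still passed for neurons against precursors.

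**Figure D3:**
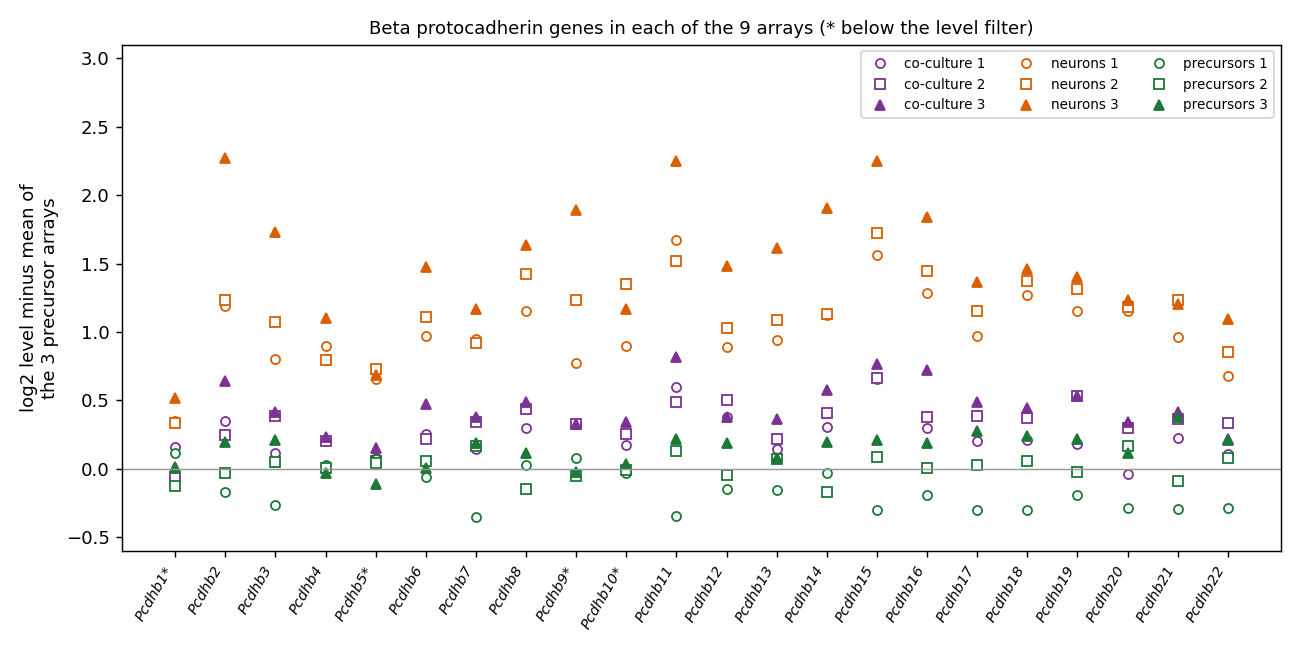
Level of each of the 22 beta protocadherin genes in each of the 9 arrays, as the log2 level minus the mean of the 3 precursor arrays. Colours give the culture and shapes the replicate, with replicate 3 as filled triangles, and an asterisk marks genes below the filter. The neuron arrays lie above all precursor arrays for every gene, and replicate 3 is the highest neuron array for 19 of 22 genes.

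Among the protocadherins outside the clusters 10 of 11 tested were higher in neurons and none lower, where 28.0% of all tested genes were higher and 35.2% lower. All 4 delta-1 genes rose and 4 of 5 delta-2 genes. Pcdh7, a delta-1 gene, was at 9.39, 9.44 and 9.31 in the co-culture, at 10.49, 10.498 and 10.52 in neurons, and at 8.64, 8.90 and 8.72 in precursors (3.36-fold higher in neurons than in precursors, log2 difference 1.75, SE 0.067, adjusted p = 1.87e-08, limma). The groups did not overlap. Pcdh1 (0.88), Pcdh9 (0.69) and Pcdh11x (0.37) were the other delta-1 genes higher in neurons. Of the delta-2 genes, Pcdh8, whose product arcadlin is induced by neuronal activity, was at 8.21, 8.18 and 8.14 in the co-culture, at 8.84, 8.68 and 8.58 in neurons, and at 7.70, 7.51 and 7.60 in precursors (2.14-fold higher in neurons than in precursors, log2 difference 1.10, SE 0.073, adjusted p = 7.01e-07, limma). Pcdh17, which acts in axon extension and presynaptic assembly, was at 8.81, 8.89 and 8.85 in the co-culture, at 10.03, 10.07 and 10.004 in neurons, and at 8.12, 8.28 and 8.31 in precursors (3.47-fold higher in neurons than in precursors, log2 difference 1.80, SE 0.057, adjusted p = 6.07e-09, limma). For both genes the groups did not overlap. Pcdh10, which promotes synapse elimination, was higher by 0.87. Pcdh18 was higher by 0.20 (adjusted p = 0.0178, limma) but did not pass with array weights (0.0574), without neuron replicate 2 (0.0554) or without precursor replicate 1 (0.0662). Pcdh19, mutated in an X-linked epilepsy, did not pass (-0.08, adjusted p = 0.242, limma).

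Pcdh20, outside the delta family, was at 7.88, 7.69 and 7.83 in the co-culture, at 8.92, 8.77 and 8.78 in neurons, and at 6.83, 6.70 and 7.14 in precursors (3.82-fold higher in neurons than in precursors, log2 difference 1.93, SE 0.10, adjusted p = 1.69e-07, limma). The groups did not overlap. In the gene table Pcdh8, Pcdh17, Pcdh20 and Pcdh9 follow each other on chromosome 14, with 1, 2 and 0 protein-coding genes between them, and all 4 were higher in neurons. The windows of Pcdh17 at chr14:84443313-84443612 (plus strand) and of Pcdh20 at chr14:88471347-88471646 (minus strand) (GRCm38.p6, RefSeq) are shown as the members of that neighbourhood with the largest differences. They hold none of the 3 motifs and so carry no capitals, and their GC content is 65.0% and 43.7%.
Pcdh17: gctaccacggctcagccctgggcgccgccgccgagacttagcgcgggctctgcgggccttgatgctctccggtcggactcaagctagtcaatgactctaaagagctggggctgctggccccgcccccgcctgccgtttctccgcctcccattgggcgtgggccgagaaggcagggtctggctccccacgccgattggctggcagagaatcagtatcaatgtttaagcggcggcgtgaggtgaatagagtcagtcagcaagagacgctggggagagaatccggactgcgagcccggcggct
Pcdh20: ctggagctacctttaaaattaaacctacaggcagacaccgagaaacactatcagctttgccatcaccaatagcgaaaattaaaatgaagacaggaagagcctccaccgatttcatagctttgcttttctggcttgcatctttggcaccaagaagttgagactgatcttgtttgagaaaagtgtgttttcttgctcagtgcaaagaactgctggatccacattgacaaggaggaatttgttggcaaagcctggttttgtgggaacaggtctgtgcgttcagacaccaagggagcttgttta
Pcdh12, a protocadherin of endothelial cells, lay below the filter, with means of 6.46 in the co-culture, 6.40 in neurons and 6.47 in precursors.

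The filter divided a few members narrowly. Pcdhb2, Pcdhb4 and Pcdhb21 passed through their neuron arrays alone, and Pcdhb21 lay nearest to the array medians of 6.75 to 6.79. Cdh26, Pcdhb12 and Pcdhb14, like Cdh9 and Pcdhb11, were above the median in no precursor array, and Cdh23 in no neuron array. Cdh16, with a neuron mean of 6.54, passed in no array.

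The co-culture was next set against precursors, and this comparison shares the precursor arrays with the one above. The co-culture RNA came from both cell types, so a changed level within precursors and the presence of neuron RNA cannot be told apart. Of the 48 tested members 15 were higher in the co-culture and 0 lower, where over all tested genes 8.22% were higher and 0.200% lower (limma). At an unadjusted p under 0.05, 27 were higher and 0 lower, against 15.8% and 2.22% of all tested genes. Without the filter 12 of the 58 members were higher and 0 lower, against 3.53% and 0.180% of all genes. None of the 15 reached 2-fold, which 0.407% of tested genes did. The co-culture arrays lay above all precursor arrays for 28 tested members and below them for 1, against 19.4% and 5.40% of tested genes.

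The differences were largest for Pcdh20 (0.91, SE 0.10, adjusted p = 4.70e-04, limma), Cdh10 (0.81, SE 0.052, adjusted p = 1.16e-05) and Cdh9 (0.80, SE 0.088, adjusted p = 3.64e-04). Cdh8 (0.65), Cdh13 (0.65), Pcdh7 (0.62), Pcdh17 (0.61), Pcdh8 (0.57) and Cdh12 (0.49) also passed. These 9 passed under every alternative in which they were tested. Cdh18 (0.26, adjusted p = 0.0374, limma), Pcdh10 (0.22, adjusted p = 0.0377) and Pcdhb15 (0.69, adjusted p = 0.0370) passed over all arrays but not when any single co-culture array was left out, without precursor replicate 2, or without the filter. Cdh18 and Pcdh10 also did not pass without neuron replicate 1, Cdh18 without precursor replicate 3, and Pcdh10 and Pcdhb15 without precursor replicate 1. Pcdh10 did not pass with cyclic loess either (adjusted p = 0.0552, limma). Pcdh1 (0.27, adjusted p = 0.0205, limma) did not pass without precursor replicate 1 (0.0709), co-culture replicate 2 (0.0843) or co-culture replicate 3 (0.0805).

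Most beta protocadherins did not pass for co-culture against precursors. All 22 had a higher mean in the co-culture, by 0.04 to 0.69 with a median of 0.33, and for 12 of 22 the arrays did not overlap, against 12.3% of all genes. Of the 18 tested only Pcdhb15 passed, where 8.22% of all tested genes were higher, so this count does not set the beta genes apart. Same-numbered co-culture and precursor arrays deviated together to a degree, though a pairing by number is not established. With the replicate number as a block 7 of the 18 passed, against 8.02% of all tested genes. Besides Pcdhb15 these were Pcdhb8 (adjusted p = 0.0278, limma), Pcdhb11 (0.0224), Pcdhb16 (0.00166), Pcdhb17 (0.00924), Pcdhb18 (0.0219) and Pcdhb19 (0.00464). Without neuron replicate 3, 7 passed too, against 8.13% of all tested genes. Without precursor replicate 1 or 2 or co-culture replicate 2 or 3 the count was 0, against 5.2% to 6.6%. All 22 beta genes were lower in the co-culture than in neurons without the filter, with differences of -1.18 to -0.36, and their arrays did not overlap, as for 22.6% of all genes.

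For each of the 35 members higher in neurons, the co-culture mean lay between the other means. It was below neurons past the threshold for 34 of the 35 and above precursors for 13. For the 25 members at least 2-fold higher in neurons, the co-culture stood above precursors by a median of 21.8% of the difference between neurons and precursors on the linear scale, with a range of 11.7% to 42.4%. The median over all 715 genes at least 2-fold higher in neurons was 22.4%, with quartiles of 19.01% and 26.01%. The lowest member was Pcdhb20 and the highest was Pcdh8.

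Set against neurons, 34 tested members were lower in the co-culture and 6 higher, where over all tested genes 24.9% were lower and 35.7% higher (limma). Without the filter 38 of 58 were lower and 6 higher, against 16.7% and 20.3% of all genes. The co-culture arrays lay below all neuron arrays for 34 tested members and above them for 7, against 27.3% and 38.1% of tested genes. The 6 past the threshold were Cdh5 (1.37), Cdh23 (0.63), Cdh24 (0.53), Cdh11 (0.27), Cdh2 (0.21) and Cdh4 (0.20), all higher under every alternative in which they were tested. Of the 34, Pcdhga10 (-0.16, adjusted p = 0.0219, limma) did not pass without neuron replicate 1 (0.0747), co-culture replicate 2 (0.0621) or co-culture replicate 3 (0.0672).

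Cdh4 and Cdh11 passed for the co-culture above each separate culture. Cdh4 was at 9.10, 9.12 and 9.06 in the co-culture, at 8.82, 8.92 and 8.92 in neurons, and at 8.81, 8.83 and 8.84 in precursors. Cdh11 was at 10.37, 10.44 and 10.31 in the co-culture, at 10.13, 10.09 and 10.12 in neurons, and at 10.05, 10.15 and 10.15 in precursors. For both, all co-culture arrays exceeded all 6 other arrays. Cdh4 exceeded precursors by 0.26 (SE 0.045, adjusted p = 0.00509, limma) and neurons by 0.20 (adjusted p = 0.00300). Cdh11 exceeded precursors by 0.26 (SE 0.05, adjusted p = 0.0102, limma) and neurons by 0.27 (adjusted p = 0.00119). In the test for a level above both cultures at once neither passed after adjustment over all genes (adjusted p = 1 for each, limma), nor did any other of the 13012 genes, above or below. At an unadjusted p under 0.05, 2 members lay above both and 0 below, against 141 and 127 of all tested genes. Cdh4 did not differ past the threshold from precursors when its probe sets were averaged (0.16, adjusted p = 0.203, limma), nor did Cdh11 without co-culture replicate 2 (adjusted p = 0.0535, limma). That array was also the highest for the fibroblast genes Dcn (8.25) and Lum (7.47), 2 of the 7 listed fibroblast and pericyte markers. The other listed markers are not given by array here. The linear levels of the 7 fibroblast and pericyte markers summed to 919 to 1431 in the co-culture, 786 to 899 in neurons and 841 to 987 in precursors. Of the 6 tested, 0 passed for co-culture against precursors (2 at an unadjusted p under 0.05, limma). Of all tested genes 8.22% were higher and 0.200% lower past the threshold, and 15.8% and 2.22% at the unadjusted p. The part of fibroblasts and pericytes in the Cdh11 difference was not tested.

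Catenins link classical cadherins to actin, and some of their genes were higher in neurons and others lower. Of 11 tested catenin and linker genes 4 were higher in neurons and 6 lower, with a median of -0.12, where 28.0% of all tested genes were higher and 35.2% lower. The count does not set the catenins apart from other genes. Ctnna1, the alpha-E-catenin gene of precursor junctions, was at 7.48 in neurons and 9.14 in precursors (-1.66, adjusted p = 1.37e-07, limma). Its neural relative Ctnna2 was at 9.55 in neurons and 9.38 in precursors (0.17, adjusted p = 0.00375, limma). Ctnnb1, which encodes beta-catenin, was lower (-0.74), as was Arvcf (-0.55). Ctnnd2, the delta-catenin gene of dendrites, was higher by 0.73, Jup by 0.51 and Pkp4 by 1.01. Ctnnd1, which encodes p120-catenin, did not pass (-0.04). Against precursors, the co-culture was higher for Ctnnd2 (0.19) and Pkp4 (0.32) and lower for none of the 11. Of all tested genes 8.22% were higher and 0.200% lower. Without the filter Pkp4 passed (adjusted p = 0.02045, limma) and Ctnnd2 did not (0.0646).

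Larger members of the cadherin superfamily, which set tissue polarity, were likewise mixed, and their counts do not set them apart. Of 9 tested genes of this list, which includes the Fat and Dchs regulator Fjx1, 4 were higher in neurons and 3 lower, against the same 28.0% and 35.2% of all tested genes. Fat4 and Dchs2 were higher by 0.89 and 1.08, and Celsr2 and Celsr3 by 0.28 and 0.30. Celsr1 (-1.43), Fjx1 (-0.34) and the Fat4 ligand gene Dchs1 (-0.21) were lower. Fat1 (-0.02) and Fat3 (0.08) did not pass. The co-culture exceeded precursors for Fat4 (0.26) and Dchs2 (0.27), where 8.22% of all tested genes were higher and 0.200% lower. No precursor array reached the array median for Dchs2, so a difference was partly built into its being tested. Without the filter Fat4 passed for co-culture against precursors (adjusted p = 0.0187, limma) and Dchs2 did not (0.0732). For neurons against precursors Dchs2 did pass without the filter (1.09e-06).

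Genes for proteins that act on clustered protocadherin promoters were lower in neurons, where the beta genes were higher. CTCF and the cohesin ring bring those promoters to a distant enhancer, and cohesin also holds sister chromatids together in dividing cells. Of the 11 listed genes, 10 were lower in neurons and 0 higher, with a median of -0.58, where 28.0% of all tested genes were higher and 35.2% lower. Stag2 (-1.10), Smc1a (-0.97), Stag1 (-0.75) and Wapl (-0.73) fell the most, and Ctcf was lower too (-0.49). Smchd1, which silences the clusters, was lower (-0.52), as was Setdb1 (-0.26), and Dnmt3b did not pass (-0.16). The proliferation marker Mki67 was lower in neurons as well, and its part was not tested. In the co-culture 0 of the 11 differed from precursors past the threshold, and 0 at an unadjusted p under 0.05 (limma). Of all tested genes 8.22% were higher and 0.200% lower past the threshold, and 15.8% and 2.22% at the unadjusted p.

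Of 9 tested genes for cadherin cleavage and for the signalling partners of protocadherins, 7 were higher and 2 lower in neurons, where 28.0% of all tested genes were higher and 35.2% lower. Ptk2b, a kinase that clustered protocadherins inhibit, was higher by 0.94. It was above the array median in the neuron arrays alone, so a difference was partly built into its being tested (without the filter, adjusted p = 7.37e-06, limma). Wasf1, Nckap1 and Cyfip2 of the actin-regulating WAVE complex were higher by 0.78, 0.51 and 0.38. The sheddase gene Adam10 was lower (-0.21). In the co-culture 0 of the 9 differed from precursors past the threshold and 3 did at an unadjusted p under 0.05 (limma). Of all tested genes 8.22% were higher and 0.200% lower past the threshold, and 15.8% and 2.22% at the unadjusted p. Of 3 tested repressors of E-cadherin, Zeb1 was lower in neurons (-0.55), and Snai2 (0.13) and Twist1 (0.04) did not pass. With 35.2% of all tested genes lower, this count does not set the repressors apart.

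**Figure D4:**
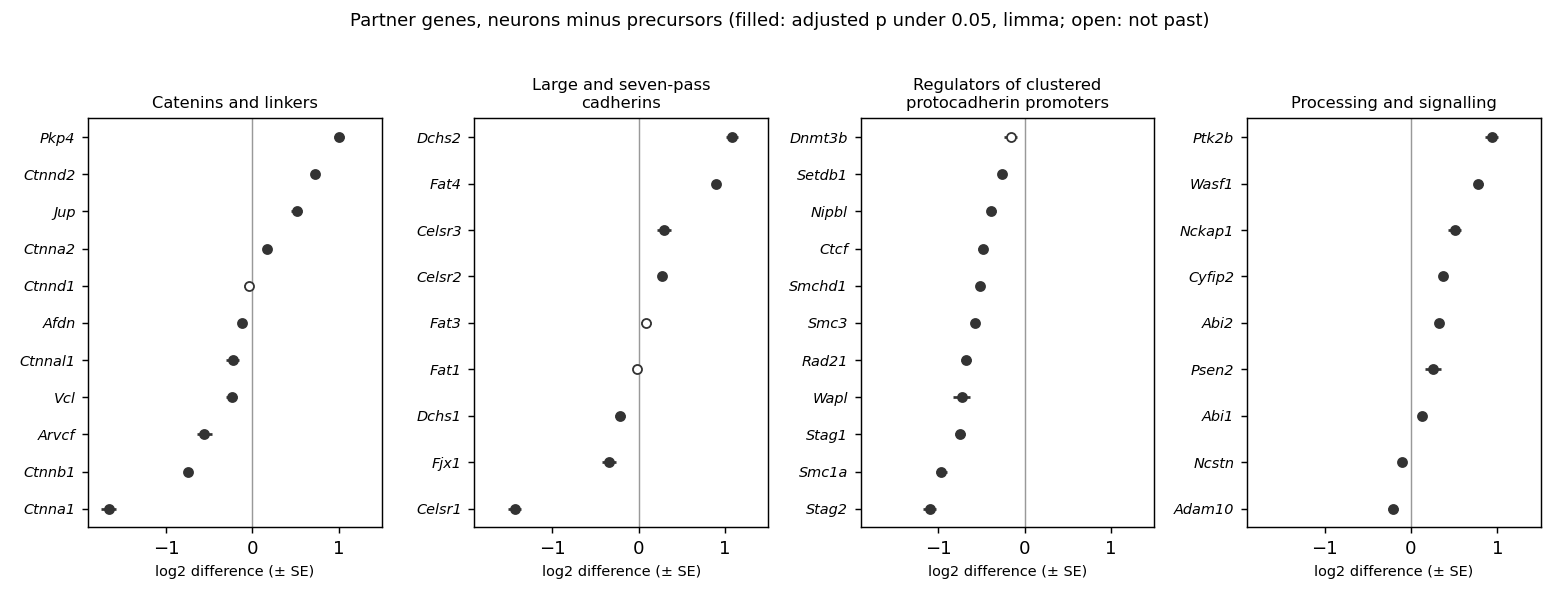
Log2 differences with standard errors, neurons minus precursors, for the tested genes of 4 partner lists. Filled points passed the threshold. Catenins run from -1.66 for Ctnna1 to 1.01 for Pkp4, all regulators of clustered protocadherin promoters lie left of 0, and most processing and signalling genes lie right of it.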

How the data were processed

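RNA of 9 cultures was measured on Affymetrix mouse gene arrays, from 100 ng of total RNA per the labels. The authors deposited log2 values for each probe set, and the submitters' processing notes name RMA and the oligo package without versions. RMA removes background, equalises the distributions of the arrays and combines the probes of a set, so differences of dim genes can be understated. Scanner files and scan dates were not used here. The array medians lay between 6.75 and 6.79. Arrays have no read depth, so their number limits the precision.

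Of 41345 probe sets, 23521 had 1 gene symbol, 1814 several and 16010 none, and only the first were used. All 58 members matched the RefSeq gene table by gene number. One limma model (version 3.58.1, R 4.3.3) of the 3 groups was fitted to all tested genes, with Benjamini-Hochberg adjustment and a threshold of 0.05, two-sided. A level outside both separate cultures was tested by the larger of its one-sided p-values. In simulated arrays of 13012 genes, neurons against precursors, the model called 85% of genes changed by 1.5-fold and 98% of those changed by 2-fold. Of its calls 6.15% were false. The simulation changed 100 genes by each fold and drew independent noise with 1 spread per gene for all groups. In the data 28.0% of tested genes were higher and 35.2% lower, and beta genes varied together, so these rates need not hold there. Members, partner lists and the rule for named genes were chosen with earlier results of these data known. The rule names, in each class, the members with the largest differences, those past the threshold for co-culture against precursors, those with the highest means and those past no comparison. Deviations from the group means were correlated across genes between same-numbered arrays. The correlations were 0.345, 0.300 and 0.161 for co-culture with precursors. They were -0.0051, 0.268 and 0.170 for co-culture with neurons, and 0.0043, 0.134 and -0.148 for neurons with precursors. Arrays of different number were not compared in this way, so a pairing by number is not established, and the main model used none. The alternatives were other array scalings, filters, probe set rules, array weights, a replicate block and leaving out each array.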

Additional observations from a re-analysis of the deposited data

How the results depend on the processing

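No difference of a tested member changed direction past the threshold under any alternative. For neurons against precursors 35 members were higher and 4 lower. With the filter at the 75th percentile, which left 30 members in the test, 23 were higher, against 33.7% of all genes tested there. Leaving out 1 array gave 34 to 35 higher and 4 to 5 lower. For co-culture against neurons 34 were lower and 6 higher, and the stricter filter gave 22 lower, against 29.9% of all genes tested there. Leaving out 1 array gave 33 to 34 lower and 6 to 7 higher. For co-culture against precursors 15 were higher, and 10 to 21 when 1 array was left out (10 without co-culture replicate 2 and 21 without neuron replicate 3). The count was 12 without the filter and 19 with array weights. The share over all tested genes moved too, from 8.22% to 5.2% without co-culture replicate 2 and 8.13% without neuron replicate 3. It was 3.53% without the filter, 10.6% with array weights and 8.02% with the replicate block. The replicate block gave 21 members higher than precursors in the co-culture, the added ones being 6 beta genes. With the block Cdh6 passed in neurons against precursors (-0.19, adjusted p = 0.0312, limma) and in the co-culture against neurons (0.17, adjusted p = 0.0451), and no other call changed. Cyclic loess moved the split of all tested genes between neurons and precursors to 32.6% higher and 31.2% lower. Of 2247 recomputed member differences, 2182 kept their side of the threshold, 32 fell short of it and 33 came to pass it. The level filter and the number of arrays limit what can be said of dim members such as Pcdhb1 and Cdh23.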

Other observations

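A probe set that carries the symbols of 9 alpha protocadherin genes, and so belongs to no single gene, was at 7.48, 7.51 and 7.42 in the co-culture, at 7.88, 7.94 and 7.90 in neurons, and at 7.47, 7.53 and 7.24 in precursors. The neuron arrays lay above all others, with a difference from precursors of 0.49. A probe set with 9 gamma symbols had means of 7.12 in the co-culture, 6.93 in neurons and 6.97 in precursors. Its neuron and precursor arrays overlapped, with a difference of -0.04, so this set was not higher in neurons. Neither was part of the tests above.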
